A study of Mus musculus with 6 samples.

Results

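The numbered zinc finger protein genes are those whose name in the array annotation is Zfp followed by a number alone. They were taken by that pattern from all probes that are not control spots, which gave 463 of 41174 probes and, under them, 240 of 27962 gene names. Of these names, 207 passed the filter on dim probes and were tested among 16293 genes in all, and the other 33 were too dim in both groups and are not described further. For 179 of the 207 genes the current symbol was found by RefSeq accession, for 21 by symbol and for 6 by an older symbol, and Zfp125 was not matched. The current symbol differs for 31 genes, such as Zfp95 (now Zkscan5), Zfp238 (now Zbtb18), Zfp161 (now Zbtb14) and Zfp294 (now Ltn1), so the number in a name does not by itself make a gene a member of 1 protein family. Names are given as in the array annotation.

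The arrays compared primary cultures of C4HD, a hormone-dependent ductal mammary tumour of BALB/c female mice that arose under the progestin medroxyprogesterone acetate and is kept by transplantation into mice treated with it. In 3 cultures the transfected RNA was pre-miR-16, a precursor of the microRNA miR-16, and in the other 3 it was pre-miR-Control, a precursor that yields no microRNA known in mammals. Both were used at 30 nM and RNA was taken after 48 h. Each of the 3 biological replicates per condition was labelled with Cy3 and hybridised to its own single-colour Agilent array. The cultures were epithelium-enriched by sedimentation and were not sorted. The question was which genes change when miR-16 is forced on these ErbB-2 positive tumour cells.

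Most proteins of this class carry arrays of C2H2 zinc fingers, short folds around a zinc ion that each read a few bases of DNA. In many of them a KRAB domain at one end recruits Trim28 (KAP1), which brings in histone methylation, heterochromatin proteins and deacetylases, so that the bound DNA is silenced. The genes lie in tandem clusters and are usually expressed at low levels. Other numbered members act on RNA, ribosomes or ubiquitin and share little with the KRAB group beyond the name.

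The sequence delivered and the sequence that marks the family are given here because they show what was added and what the probes read. Mature miR-16 (RefSeq, GRCm38, chr3:69009918-69009939, plus strand) is written with its seed, bases 2 to 8, in capitals.
mmu-miR-16-5p: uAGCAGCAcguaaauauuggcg
Adjacent C2H2 fingers are joined by a conserved linker of 5 residues, TGEKP. In some reading frame 11 of the 463 member probes (2.38%) encode it, against 21 of all other probes (0.0516%). In 4 of these 60-base probes the 15 linker bases are in capitals. They are probes of Zfp2 (mm7, chr11:50856741-50856800 and chr11:50856656-50856715, minus strand), Zfp97 (chr17:15490861-15490920, plus strand) and Zfp248 (chr6:118454592-118454651, minus strand). In the Zfp97 probe the frame of the linker meets a stop codon (tga) soon after it, and open reading frames were not checked.
Zfp2, first probe: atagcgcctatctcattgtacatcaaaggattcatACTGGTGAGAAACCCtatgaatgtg
Zfp2, second probe: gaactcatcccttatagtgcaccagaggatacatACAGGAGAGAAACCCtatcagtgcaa
Zfp97: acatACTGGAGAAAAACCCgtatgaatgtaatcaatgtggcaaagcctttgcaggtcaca
Zfp248: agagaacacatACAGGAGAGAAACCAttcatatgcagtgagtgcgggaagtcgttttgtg
Tested probe by probe, the 2 Zfp2 probes changed by -1.54 and -1.11 on the log2 scale, the Zfp97 probe by -0.75 and the Zfp248 probe by 0.00. Of 10 linker probes that passed the filter, 6 were called lower and 0 higher (31.3% and 15.2% of all probes tested one by one), with a median change of -0.59. Of 323 member probes without the linker, 161 were called lower and 25 higher, with a median of -0.39. Whether a probe in such a conserved stretch also binds transcripts of other family members was not tested.

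Levels are log2 signals relative to the 75th percentile of the same array, and a change is the mean level on the 3 pre-miR-16 arrays minus that on the 3 pre-miR-Control arrays. A gene was called where the adjusted p from limma, taken over all 16293 genes, was under 0.05. Every change was also computed with each array scaled on 10 E1A probes, which read a spike-in RNA added in known amount and not made by the cells. Relative to the 75th percentile, all 10 E1A probes were lower on the pre-miR-16 arrays, with differences of -0.25 to -0.60, so this scaling adds 0.41 to the change of every gene and moves the median of all genes to 0.21, against -0.20 under the 75th percentile. From these arrays the 2 scalings cannot be ranked, and both are given.

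Among genes past the filter, the numbered Zfp genes formed a narrow distribution shifted below the rest of the array. Their median change was -0.37 under the 75th percentile, against -0.19 for all 16086 other genes, a difference of medians of -0.18 that no constant scaling can alter. Under spike-in scaling the medians were 0.04 and 0.22. The SD of the 207 changes was 0.79, against 1.15 for the other genes, and the interquartile range was 0.54, against 0.70. After normexp background correction the SDs were 0.51 and 0.77, and in the series matrix 0.52 and 0.77. In all, 93.7% of Zfp genes lay within 1 log2 unit of their own median, against 82.8% of the other genes. The upper tails differed, with a 90th percentile of 0.24 for Zfp genes and 1.27 for the other genes, while the 10th percentiles were -0.86 and -0.88. Without the genes called at least 4-fold higher, the SD was 0.44 for Zfp genes and 0.64 for the others. These are descriptions with no test, since the genes of a family are not independent samples.

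**Figure D1:**
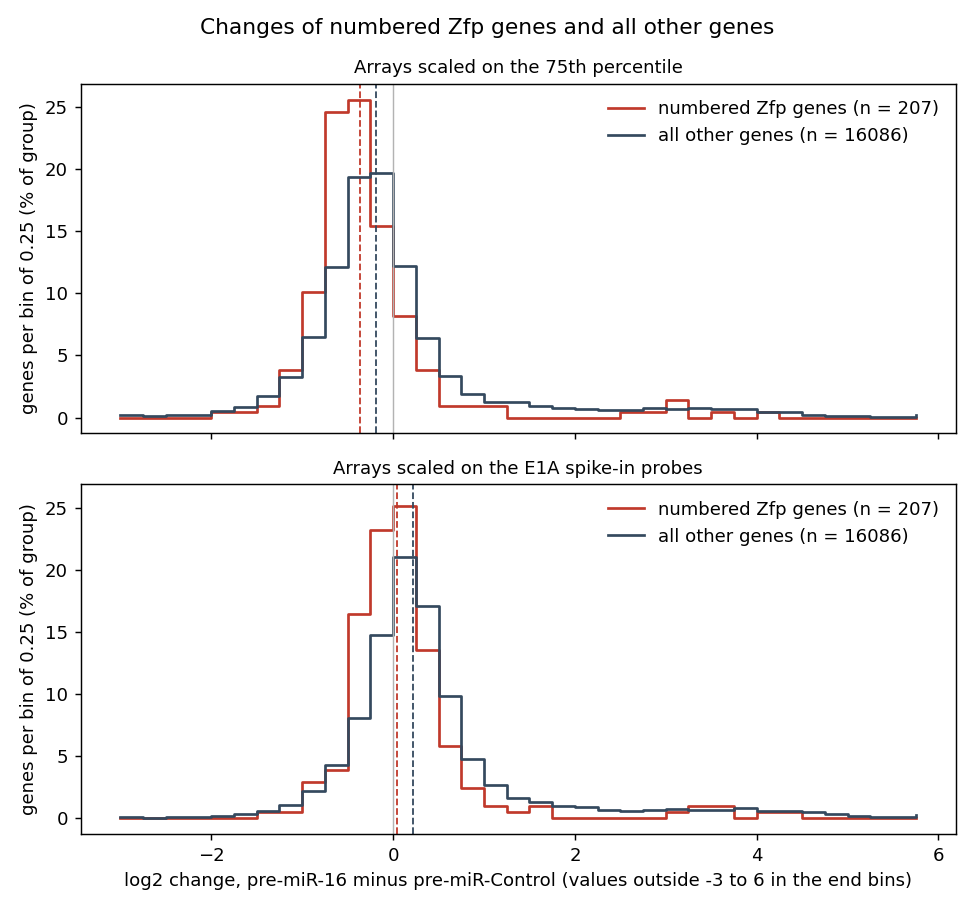
Share of genes (percent of each group, vertical axis) in bins of 0.25 of the log2 change, pre-miR-16 minus pre-miR-Control (horizontal axis), for 207 numbered Zfp genes and 16086 other genes, under 75th percentile scaling (top) and spike-in scaling (bottom). Dashed lines are the medians, -0.37 for Zfp genes and -0.19 for the others in the top panel and 0.04 and 0.22 in the bottom panel.

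The calls depended on the scaling, while the spread of the changes is the same under both because a constant is added to every change. The E1A offset also varied between arrays of a group, from 1.42 to 1.58 with pre-miR-16 and from 1.80 to 2.11 with pre-miR-Control. The SE of a change therefore differed between the 75th percentile and spike-in scaling, at 0.08 and 0.16 for Zfp655 and 0.25 and 0.22 for Zfp292. Its part in the calls was not tested. Under the 75th percentile, 109 of 207 Zfp genes were called lower (52.7%), against 32.9% of all genes tested, and 15 were called higher (7.25%), against 16.2% of all genes. Under spike-in scaling 12 were called lower (5.80%), against 6.35% of all genes, and 24 higher (11.6%), against 25.5%. All 12 of these falls and all 15 rises under the 75th percentile were called under both scalings, which was so for 6.35% of all genes for falls and 16.2% for rises. The remaining 97 falls were lower under the 75th percentile alone, and 9 genes were called higher under spike-in scaling alone. No Zfp gene was called in opposite directions by the scalings. This is not particular to the family, since no gene of all those tested was. Over all genes, too, each of the 2638 rises under the 75th percentile and each of the 1035 falls under spike-in scaling was called under both. The number of Zfp genes called lower under spike-in scaling was 4 without pre-miR-16 replicate 1, 4 without pre-miR-Control replicate 2 and 5 without pre-miR-Control replicate 3. Of all genes 3.03%, 2.96% and 3.42% were called lower in these fits. Without pre-miR-16 replicate 2, pre-miR-Control replicate 1 or pre-miR-16 replicate 3 the number was 16, 17 and 8, against 8.09%, 6.98% and 4.85% of all genes. The share of Zfp genes called lower thus stood above that of all genes under the 75th percentile and close to it under spike-in scaling, and the share called higher was below that of all genes under both.

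The arrays of the groups did not overlap for any of the 124 called genes. In all, 130 Zfp genes had all 3 pre-miR-16 arrays below all 3 pre-miR-Control arrays (62.8%; 42.2% of all genes tested) and 19 had them above (19.2% of all genes). Under spike-in scaling 34 were separated downward, where 10.7% of all genes were, and 41 upward, where 37% of all genes were. The 97 genes called lower by the 75th percentile alone had changes between -0.97 and -0.26 with a median of -0.60, and the 83 uncalled genes lay between -0.81 and 0.62 with a median of -0.16.

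The position of the family within each array does not use either scaling. The median log2 signal of the Zfp genes minus that of all other genes on the pre-miR-16 arrays, in the order of their replicate numbers, came to -0.83, -0.78 and -0.89. On the pre-miR-Control arrays it came to -0.43, -0.48 and -0.48. The 3 pre-miR-16 arrays were all lower than the 3 pre-miR-Control arrays, with a wide gap between the groups. Slides could be compared in part, since slide 1 held replicate 1 of both groups and slide 2 held pre-miR-16 replicate 2 with pre-miR-Control replicates 2 and 3. The median Zfp change was -0.43 within slide 1 and -0.39 within slide 2, against -0.19 and -0.23 for the other genes. All 124 called Zfp genes had the sign of the full comparison within both slides. That follows from the lack of overlap between their groups, so it is no separate check on the slides. Slide 3 held only pre-miR-16 replicate 3 and gives no such value. With slide as a fixed block in limma, 73 of the 207 Zfp genes were called lower and 9 higher, against 23% and 12.7% of all genes.

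**Figure D2:**
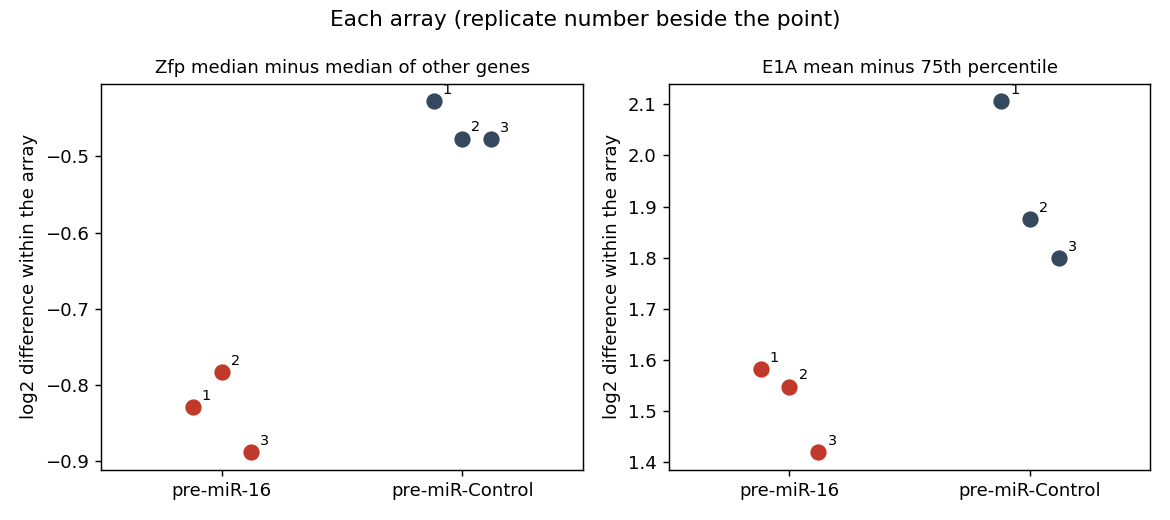
Left, the median log2 signal of numbered Zfp genes minus that of all other genes on each array; right, the mean log2 signal of the 10 E1A probes minus the array's 75th percentile. Each point is 1 array with its replicate number, and on both panels the 3 pre-miR-16 arrays lie below the 3 pre-miR-Control arrays, with left-hand values of -0.89 to -0.78 and -0.48 to -0.43.

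Under the 75th percentile the downward calls were most frequent among Zfp genes with bright probes, and under spike-in scaling they were not. With all 16293 genes divided into 4 equal classes by mean signal, the percentage of Zfp genes called lower was 23.1, 52.7, 60.3 and 76.9 from the dimmest to the brightest class. For all other genes it was 27.1, 33.9, 35.3 and 34.5. Under spike-in scaling the percentage of Zfp genes called lower over the same classes was 0, 12.2, 2.94 and 3.85, against 9.87, 8.20, 4.59 and 2.79 for the other genes. The median Zfp change was -0.25 in the dimmest class and -0.41, -0.41 and -0.43 in the next 3, against -0.20, -0.19, -0.19 and -0.20 for the other genes. The SD of Zfp changes was 1.20, 0.82, 0.41 and 0.30 over the same classes, below the 1.56, 1.28, 0.84 and 0.63 of the other genes in each. The families also differed in precision, as the median residual SD between replicate arrays was 0.13 for Zfp genes and 0.17 for the others. The narrower residual spread accompanied the larger share of calls, and its part in that share was not tested.

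**Figure D3:**
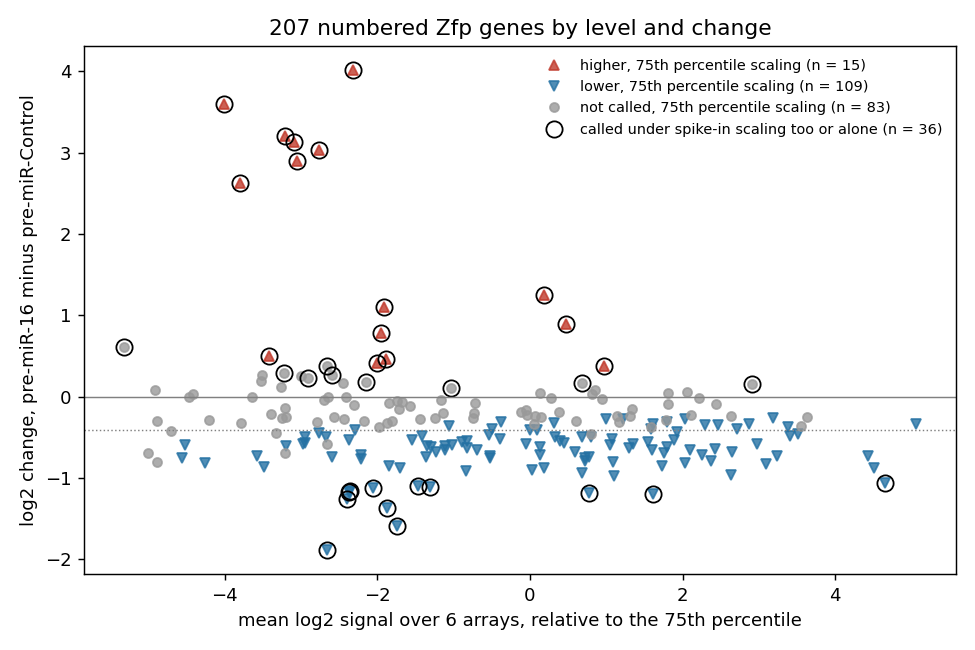
Mean log2 signal over the 6 arrays relative to the 75th percentile (horizontal axis) and log2 change, pre-miR-16 minus pre-miR-Control (vertical axis), for each of the 207 numbered Zfp genes, marked by its call under the 75th percentile. Open circles mark the 36 genes called under spike-in scaling, and the dotted line is where a change of 0 under spike-in scaling falls; the 7 largest rises all have a mean signal below the 75th percentile, and the 12 falls circled lie at -1.06 or below.

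Other zinc finger names, among them numbered Zbtb, Zscan and Zkscan genes, had a median between those of numbered Zfp genes and all other genes. Their upper tail was wider than that of numbered Zfp genes. The split follows names in the array annotation, and some numbered Zfp genes are now Zbtb, Zscan or Zkscan genes. The 40 tested genes of this kind had a median change of -0.28, an interquartile range of 0.58 and an SD of 1.15, with a 90th percentile of 0.81. Under the 75th percentile 13 were called lower (32.5%) and 5 higher (12.5%), against 32.9% and 16.2% of all genes, and under spike-in scaling 1 lower and 9 higher (22.5%), against 6.35% and 25.5% of all genes. The 77 tested Sox, Fox, Gata, Klf, Tbx, Runx and Hox genes had a median of -0.25, an interquartile range of 0.84 and an SD of 1.44. Of these 26 were called lower and 16 higher under the 75th percentile, and 6 lower and 22 higher under spike-in scaling. At least 4-fold rises were called for 7 of the 207 numbered Zfp genes, for 3 of the 40 and for 13 of the 77, where they were called for 7.02% of all genes tested. The 40 and the 77 genes were dimmer, with median levels of -1.80 and -2.03, against -0.74 for numbered Zfp genes. The part of level in these spreads and rises was not tested.

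The largest fitted rise among the probes tested for a gene was that of Zfp521, a multi-finger cofactor known from stem and mesenchymal progenitor cells and as a brake on fat cell commitment. Its levels were -0.31, -0.11 and -0.51 on the 3 pre-miR-16 arrays, against -4.55, -4.35 and -4.07 on the pre-miR-Control arrays. The change was 4.02 ± 0.16 (SE, n = 3 arrays per group), or 16.2-fold, with a limma adjusted p of 1.75e-05, and 4.43 under spike-in scaling. Zfp516, a factor known for promoting the brown fat programme, had levels of -1.68, -1.34 and -1.80 with pre-miR-16, against -4.75, -4.47 and -5.21 with pre-miR-Control. Its change was 3.20 ± 0.22 (limma adjusted p = 0.000127).

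Zfp512 had levels of -2.35, -1.77 and -2.50 on the pre-miR-16 arrays, against -6.04, -5.81 and -5.55 on the pre-miR-Control arrays, where the probe stayed at background throughout. Its rise is therefore a bound, at least 8.62-fold on the processed signal (limma adjusted p = 8.59e-05). The bound sets the mean on the pre-miR-16 arrays against the lowest signal well above background, or the probe's own signal where that was higher, on each pre-miR-Control array. Zfp105 rose by 3.04 ± 0.19, with levels of -1.31, -1.05 and -1.40, against -4.67, -4.04 and -4.14. Zfp422, a factor described in developing teeth, rose by 2.89 ± 0.17, with levels of -1.73, -1.34 and -1.75, against -4.75, -4.49 and -4.27. In these 5 genes even the lowest pre-miR-16 array was far above the highest pre-miR-Control array.

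Zfp704 and Zfp286 rose against uneven controls. Zfp704 had levels of -1.60, -1.32 and -1.65 with pre-miR-16, against -3.45, -5.17 and -5.34 with pre-miR-Control, a change of 3.13 ± 0.50 (limma adjusted p = 0.00357). Zfp286 had levels of -2.54, -2.40 and -2.53, against -5.70, -3.47 and -6.17, a change of 2.62 ± 0.68 (limma adjusted p = 0.0202). The second, dimmer probes of Zfp704, Zfp422 and Zfp286 rose by 4.17, 4.08 and 3.93 when probes were tested one by one. Their mean levels on the pre-miR-Control arrays were -7.02, -6.61 and -6.21. The order of the largest rises therefore depends on the probe, and the rise of Zfp512 is a bound with no rank. For the tested probes of Zfp704 and Zfp286 only 1 of 3 pre-miR-Control arrays was well above background, and that array was the highest of its group. Below these 7 genes came smaller rises. Zfp36 (tristetraprolin), which binds AU-rich elements and speeds the decay of cytokine messages, had levels of 1.00, 0.17 and 1.25, against -0.50, -0.69 and -0.13, a change of 1.25 ± 0.30 (limma adjusted p = 0.0163). The call of Zfp36 was lost with slide as a fixed block (limma adjusted p = 0.0693). It was also lost when pre-miR-16 replicate 1 or pre-miR-Control replicate 2 was omitted (limma adjusted p = 0.0563 and 0.0586). That of Zfp286 was lost under 7 settings other than the scaling, with limma adjusted p between 0.0511 and 0.0765. Among them were the fixed slide block and the omission of pre-miR-16 replicate 1 or 3 or of pre-miR-Control replicate 1 or 3. The second Zfp286 probe, tested on its own with all arrays, was called higher (limma adjusted p = 5.22e-05). Zfp13 rose by 1.10 and Zfp180 by 0.90. The other called rises were Zfp580, Zfp189, Zfp294, Zfp287 and Zfp385, between 0.79 and 0.37, and Zfp385 lost its call under 6 settings other than the scaling, the fixed slide block among them.

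The 10 largest falls were called under both scalings. Zfp184, a KRAB zinc finger protein, had levels of -3.82, -3.18 and -3.81 on the pre-miR-16 arrays, against -1.70, -1.64 and -1.82 on the pre-miR-Control arrays. Its change was -1.89 ± 0.19 (SE, n = 3 arrays per group; limma adjusted p = 0.000688), or 3.70-fold lower, and -1.48 under spike-in scaling. Zfp81, also of the KRAB class, had -2.62, -2.54 and -2.46, against -0.89, -0.92 and -1.05, a change of -1.59 ± 0.09 (limma adjusted p = 6.77e-05) and of -1.18 under spike-in scaling. The 3 arrays of each group lay close together for Zfp81, far from those of the other group. The third Zfp2 probe, the brightest and the one tested for the gene, had -2.76, -2.29 and -2.61, against -1.13, -1.23 and -1.21, a change of -1.36 ± 0.14, so that all 3 kept Zfp2 probes fell.

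After these came Zfp125 at -1.26, Zfp95 (Zkscan5, with a SCAN and a KRAB domain) at -1.20, Zfp358 at -1.18, Zfp397 at -1.17, Zfp606 at -1.16, Zfp113 at -1.13 and Zfp292 at -1.11. The call of Zfp292 was lost with slide as a fixed block (limma adjusted p = 0.0546). Zfp3 at -1.10 and Zfp655 at -1.06 complete the 12 genes lower under both scalings. The same 12 are those called at least 2-fold lower, where 6.81% of all genes were, beside 9 called at least 2-fold higher, where 10.5% of all genes were. Zfp655, known in humans as a binder of the signalling protein VAV1, had levels of 4.14, 4.07 and 4.16, against 5.15, 5.19 and 5.20, with a change of -1.06 ± 0.08 (limma adjusted p = 0.000214; 0.0179 under spike-in scaling). No fall among the 207 genes reached 4-fold.

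**Figure D4:**
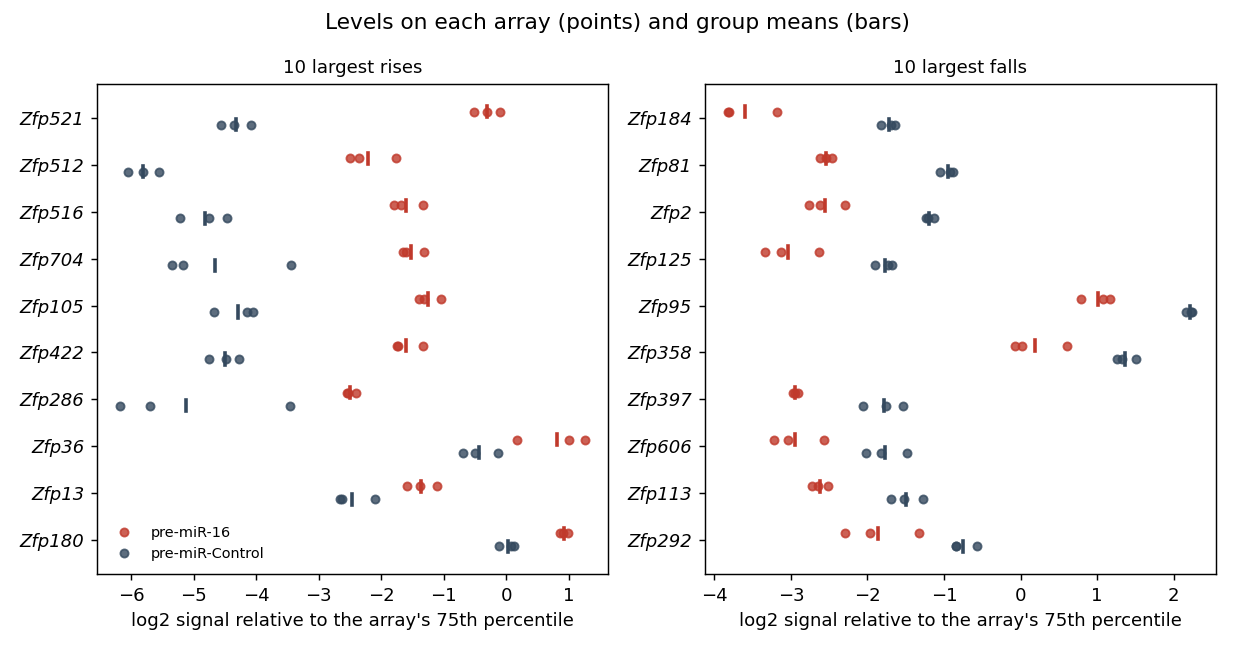
Log2 signal relative to the array's 75th percentile for the 10 largest rises (left) and the 10 largest falls (right) among numbered Zfp genes; points are single arrays, upper row pre-miR-16 and lower row pre-miR-Control, and bars are group means. The groups do not overlap for any of the 20 genes, and the pre-miR-Control arrays of Zfp704 and Zfp286 are widely spread.

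Among KRAB zinc finger genes with a described part in silencing, 6 were on the array and 4 were tested. Zfp57, which protects imprints in the embryo, and Zfp92 were too dim to test. Zfp90, a repressor that acts with Trim28, had levels of -0.36, -0.28 and -0.13 with pre-miR-16, against 0.60, 0.68 and 0.57 with pre-miR-Control, a change of -0.87 ± 0.10. Zfp202 changed by -0.86 and Zfp30 by -0.56, and these 3 were called lower under the 75th percentile and none of them under spike-in scaling. Under the 75th percentile 52.7% of all numbered Zfp genes and 32.9% of all genes were called lower, and under spike-in scaling 5.80% and 6.35%. With slide as a fixed block the calls of Zfp202 and Zfp30 were lost (limma adjusted p = 0.0831 and 0.09998), as they were with 2 and 4 of the single arrays omitted. Zfp445, which also protects imprints, was at -0.31 and was not called. The median of the 4 was -0.71, against -0.20 for all genes tested.

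The partners of KRAB repression were taken as a list of histone and DNA methylation, heterochromatin and deacetylase genes. Of 32 tested cofactors 14 were called lower (43.8%) and 0 higher under the 75th percentile, with a median of -0.26, where 32.9% and 16.2% of all genes were. Under spike-in scaling 2 were lower (6.25%) and 5 higher (15.6%), where 6.35% and 25.5% of all genes were. The difference between these counts and those of the Zfp genes was not tested. Trim28 itself had levels of 2.987, 3.244 and 3.096, against 3.433, 3.345 and 3.241, a change of -0.23 ± 0.11 that was not called (limma adjusted p = 0.120). Setdb1, the histone methyltransferase that Trim28 recruits, was at -0.25 (limma adjusted p = 0.0856). The histone deacetylase Hdac2 at -1.18 and the DNA methyltransferase Dnmt3b at -1.04 were lower under both scalings. The histone methyltransferase Ehmt1 at -0.86, the demethylase Kdm1a at -0.60 and the heterochromatin protein Cbx3 at -0.54 were lower under the 75th percentile alone.

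Of 10 tested Zfp genes whose products act on RNA, ribosomes, chaperones or the spindle, 2 were called higher (20%) and 4 lower (40%), with a median of -0.15, and under spike-in scaling 3 were higher (30%) and 0 lower. The shares are near those of all genes, 16.2% higher and 32.9% lower under the 75th percentile and 25.5% higher under spike-in scaling. Zfp36 and Zfp385 (Zfp385a), a binder of structured RNA, were the rises. Zfp706, a small and very bright gene, had levels of 4.143, 4.004 and 4.022, against 4.701, 4.799 and 4.871, a change of -0.73 ± 0.09. Zfp326, a subunit of a complex that links transcript elongation to splicing, changed by -0.50. Zfp598, the ubiquitin ligase of collided ribosomes, was at 0.15 and was called higher under spike-in scaling alone.

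Of 12 genes on the array with a described role in lineage choice, 8 were tested, and Zfp423, Zfp42, Zfp536 and Zfp365 were too dim. Zfp521 and Zfp516 were the 2 called higher, under both scalings (25%). Of all genes 16.2% were called higher under the 75th percentile and 25.5% under spike-in scaling. Another 2 of the 8 were called lower under the 75th percentile (25%), against 32.9% of all genes. Zfp238 (Zbtb18), a repressor in neuronal differentiation, had levels of 1.58, 1.85 and 1.43, against 2.41, 2.44 and 2.47, a change of -0.82 ± 0.13, and Zfp217, a breast cancer oncogene in humans, changed by -0.57. Both were called lower under the 75th percentile and neither under spike-in scaling. The 4 uncalled genes of this group lay between -0.25 and 0.06. The probe named Zfp469 belongs by accession to Tnrc18 and was left out of this group.

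Of 18 broadly expressed regulators, 10 were called lower (55.6%) and 0 higher under the 75th percentile, with a median of -0.28, where 52.7% of all numbered Zfp genes and 32.9% of all genes were called lower. Under spike-in scaling 1 was lower, Zfp292, and 1 higher, Zfp592. Zfp91, a ubiquitin ligase of the NF-κB pathway, had levels of 2.11, 1.96 and 2.22, against 2.70, 2.81 and 2.71, a change of -0.65 ± 0.10. Zfp161 (Zbtb14) changed by -0.68 and Zfp64 by -0.40, and Zfp64 was at 0.01 under spike-in scaling and lost its call when pre-miR-Control replicate 2 was omitted (limma adjusted p = 0.0506). Zfp143, an activator at many promoters, was at -0.40 and was among those called lower.

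Neighbouring Zfp genes were not uniform. Runs of at least 3 tested genes with gaps under 500 kb were formed from the probe positions (mm7), and chromosome 7 alone held 51 of the tested genes. Its longest run, 10 genes from Zfp180 to Zfp428, had 4 called lower and 1 higher, with changes between -0.97 for Zfp428 and 0.90 for Zfp180 at its ends. The next, 9 genes from Zfp84 to Zfp260, had 2 called lower. In the run from Zfp553 to Zfp668 (chromosome 7, 123334207 to 123962730) all 5 genes were called lower, between -0.65 and -0.49, and none under spike-in scaling. In the run from Zfp99 to Zfp655 (chromosome 5, 144223804 to 144275934) all 3 were called lower, Zfp95 at -1.20, Zfp655 at -1.06 and Zfp99 at -0.58, and Zfp95 and Zfp655 under both scalings. Under the 75th percentile 52.7% of all numbered Zfp genes were called lower and 7.25% higher, against 32.9% and 16.2% of all genes tested. Under spike-in scaling 5.80% of numbered Zfp genes and 6.35% of all genes were called lower. The runs were laid out after the changes were known and are given without a test.

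**Figure D5:**
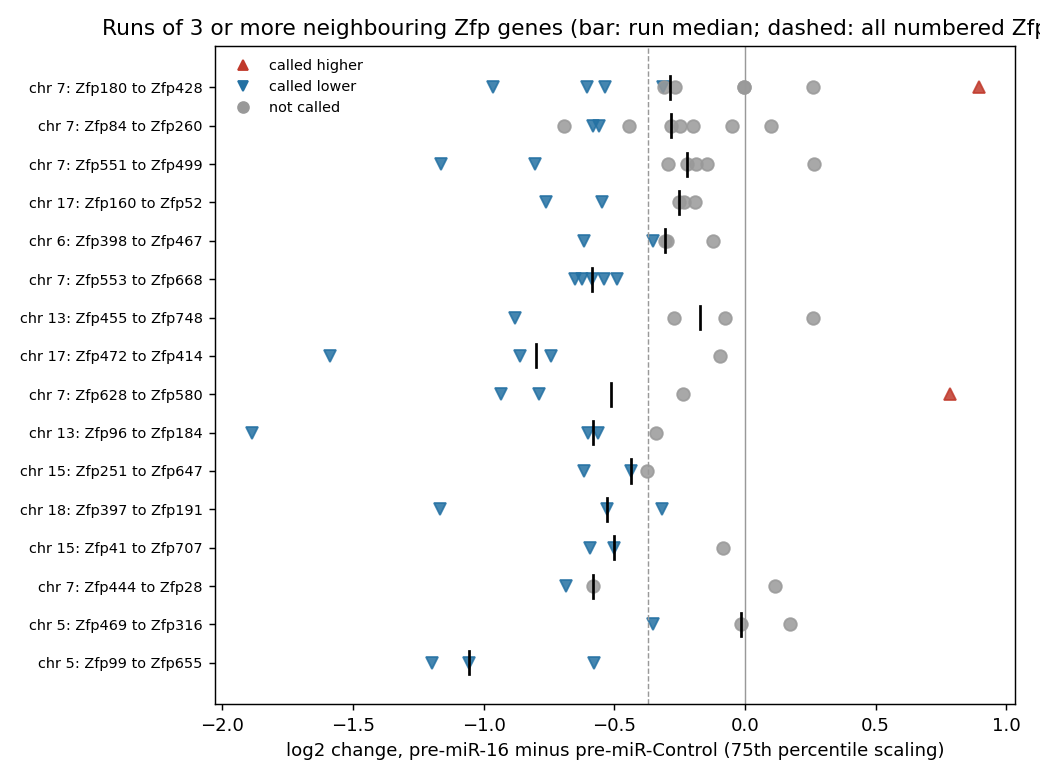
Log2 change, pre-miR-16 minus pre-miR-Control, under 75th percentile scaling (horizontal axis) for each gene in runs of 3 or more neighbouring numbered Zfp genes, 1 run per row. Symbols give the call, bars the median of a run, and the dashed line the median of all 207 genes (-0.37); the 5 genes from Zfp553 to Zfp668 lie close together, while the 10 from Zfp180 to Zfp428 span from -0.97 to 0.90.

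Different probes of a gene mostly moved together. Of 93 genes with at least 2 probes past the filter, 76 had all probes changed in the same direction, and the median gap between the highest and lowest change was 0.25. In 8 genes the gap was over 1, with a largest gap of 2.05. Probes were called in opposite directions in Zfp148, Zfp386 and Zfp451, and the tested probes of Zfp386 and Zfp451 lost their call with slide as a fixed block. In Zfp386 the tested probe changed by -0.75 and a dimmer one, with mean levels of -3.88 and -5.18 in the 2 groups, by 1.30. In Zfp451 the tested probe changed by -0.41 and a dimmer one by 0.93. In Zfp148 the tested probe was at -0.09 and was not called, while 2 others were at 0.72 and -0.39. The tested probe is therefore not a measure of every transcript of these 3 genes.

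Markers of other cells differed between the groups alongside these changes. Of 15 fibroblast markers 14 were called higher, with a median change of 3.94, and the median level of the list was between 3.64 and 4.20 on the pre-miR-16 arrays and between -0.53 and -0.42 on the pre-miR-Control arrays. Of 15 macrophage markers 13 were called higher, with a median change of 4.35 and a median level between 0.61 and 1.25 against levels between -5.46 and -3.23. The probes of Ptprc and Laptm5 stayed at background on all 3 pre-miR-Control arrays. Of 15 markers of luminal mammary epithelium 10 were called lower, with a median change of -0.76, and 4 under spike-in scaling, with a median of -0.35. All 15 luminal markers passed the filter, with median levels of 3.88 to 3.93 against 4.46 to 4.81. Of 15 genes of G2 and mitosis 9 were called higher, and 13 under spike-in scaling, while the counts for fibroblast and macrophage markers were equal under both. The part of fibroblasts, macrophages and luminal cells in the Zfp rises and falls was not tested. In bulk RNA fewer cells of a type and less RNA per cell cannot be told apart. Ccnj, a reported target of miR-16, changed by -1.98 (limma adjusted p = 4.0e-05).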

How the data were processed

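Spot intensity in the deposited files was background-subtracted and detrended within each array by Agilent Feature Extraction 9.5.3.1, per the file headers, and was not normalized between arrays. Mean spot and local background intensity, also deposited, served for the normexp alternatives (offset 50). The deposited series matrix holds log2 values, whose normalization the labels do not state. It served only as an alternative, since its columns for pre-miR-16 replicates 1 and 2 correlated less with their own arrays (Spearman 0.946 and 0.944) than with the other of the pair (0.965 and 0.970).

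Control spots and outlier spots (74 to 113 per array) were left out, and 57.2% to 64.0% of spots were well above background. Spots of a probe were averaged as log2 values after subtracting the array's 75th percentile or the mean of 10 E1A probes. The filter asked for a share of 0.5 or more of a probe's spots well above background on all 3 arrays of 1 group or the other. The brightest probe per gene name was tested with lmFit and eBayes (limma 3.58.1 in R 4.3.3, with pandas 2.3.3 and version 1.17.8 of data.table), with Benjamini-Hochberg adjustment over 16293 genes. With 3 arrays per group an exact permutation test cannot go below 0.1, and the number of arrays limits the precision. The code was tested on simulated data. Coordinates are those of the files (mm7).

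Genes named are the 10 largest called rises and falls without overlap, up to 4 per role list and 6 cofactors by smallest p, and genes with opposed probes. A result that this rule selects is not reported here. Genes outside this rule (Zfp3, Zfp655, 5 smaller rises, genes of the runs and probes described, Zfp598, Zfp592, Zfp143) were named after their values were seen. The members and the gene lists were chosen with earlier results of these data known. Promoter sequences were at hand for 164 of the 207 genes, under 80%, so a check of promoter composition is void and none is given.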

Additional observations from a re-analysis of the deposited data

How the results depend on the processing

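Spike-in scaling gave 24 called higher, 12 lower and a median of 0.042. With the 8 E1A probes well above background on every array it gave 12 lower (6.13% of all genes) and a median of 0.014. Of the 15 rises 9, and of the 109 falls 11, were called in each of 22 refits with other settings that kept the gene. These 11 falls are all among the 12 called lower under spike-in scaling. The share of all genes called in every refit is not given, so these counts cannot be set against the rest of the array. Of 35 named Zfp genes, 11 lost their call under spike-in scaling without a change of sign, and 8 with slide as a fixed block, among them Zfp36, Zfp286 and Zfp292. Normexp left the SD of the changes at 0.51 with the 75th percentile, and with quantile normalization at 0.51 with a median of -0.27. The series matrix gave a median of -0.30 and an SD of 0.52. Requiring signal on all 6 arrays gave an SD of 0.68, testing every probe 25 higher, 167 lower and an SD of 0.83, and averaging a gene's probes an SD of 0.82. An adjusted p under 0.01 left 8 higher and 69 lower, for which no share of all genes is given. A 2-fold minimum left 9 and 12, against 10.5% and 6.81% of all genes. Slide as a fixed block gave 9 higher, a median of -0.41 and an SD of 0.80, and a median of -0.024 under spike-in scaling. Leaving out 1 array at a time gave 10 to 19 higher, 78 to 111 lower, medians of -0.40 to -0.37 and SDs of 0.79 to 0.80. In these fits 12.8% to 20.2% of all genes were called higher and 21.3% to 34.5% lower. Under spike-in scaling the ranges were 17 to 32 higher, 4 to 17 lower and medians of -0.052 to 0.075. Of all genes 18.2% to 29.0% were then called higher and 2.96% to 8.09% lower. The rises numbered 10 without pre-miR-Control replicate 3, against 13.5% of all genes. The spike-in falls numbered 4, 4 and 5 without pre-miR-16 replicate 1 and pre-miR-Control replicates 2 and 3, and 8 without pre-miR-16 replicate 3. The shares of all genes for these falls are given above. Zfp64 turned to 0.013 under spike-in scaling and Zfp386 to 0.33 with probes averaged. The spike-in fits with a block or an array left out were chosen after seeing the data. Where no value above shows it, the cause was not tested.

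Replicate numbers did not pair the arrays: deviations of same-numbered arrays correlated at -0.09, -0.02 and -0.002. With replicate number as a block 11 Zfp genes were called higher and 89 lower, against 14.2% and 24.9% of all genes. Under spike-in scaling with this block 26 were higher and 15 lower, against 24.9% and 6.92% of all genes.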
